A study of Mus musculus with 42 samples.

Results

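The 6 genes described here, Fjx1, Rbpjl, Dnph1, Slc9a5, Bpifb2 and Bpifb3, were taken from the 54752 genes of the lymph node count table of a mouse knee implant study where they were chosen by their differences in Implant nodes. Those node CPM values selected them, so node differences are given as a description with no test. The node table holds 18 libraries in 6 groups of 3: Implant, ContraImplant and NoImplant, each on days 7 and 14. Implant columns carry the word surgery in the table and the other 2 kinds of node the words no surgery. ContraImplant nodes came from the same mice as the Implant nodes, by the mouse numbers in the labels (7, 8 and 9 on day 7, and 25, 26 and 27 on day 14), and NoImplant nodes from other mice. The sample descriptions carry an L for every ContraImplant node and an R for every Implant and NoImplant node. Differences from ContraImplant nodes thus cannot be told apart from a difference between L and R. The joint soft tissue table, which played no part in the choice, holds 24 libraries in 6 groups of 4: RST on days 3, 7, 14, 21 and 35, and LST on day 35. What RST and LST stand for is not in the labels. All mice were wild type C57BL/6, with no other allele or agent named for any group. Node replicates came from different mice, whereas nothing says so for the joint replicates, whose p-values may thus measure partly technical spread.

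Node libraries held 22041900 to 44371001 counts and joint libraries 17842090 to 28024003. The node libraries had the markers of lymph node tissue: the 9 B cell markers summed to 2975 to 5971 CPM, a count scaled to the size of its library, and the 9 T cell markers to 1857 to 2490 CPM. On the first principal component of all node genes, Implant libraries ran between -36.8 and -20.3, and the ContraImplant day 7 library of mouse 7 lay among them at -36.0. The ContraImplant day 7 library of mouse 8 lay farthest away, at 66.8, with 7433 CPM of 7 adipocyte markers, against 84.3 CPM in that of mouse 7. Day 7 contrasts with ContraImplant nodes are given with and without these libraries. In bulk tissue, fewer cells that express a gene and less RNA per cell cannot be told apart.

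The proteins belong to unrelated systems. FJX1 is the mammalian relative of fly four-jointed, a Golgi kinase that in Drosophila phosphorylates the cadherins Fat and Dachsous. RBPJL is a paralog of RBPJ, the DNA-binding protein of the Notch pathway, and is best known as a partner of PTF1A in pancreatic acinar cells. DNPH1 cleaves the base from deoxynucleoside monophosphates and so clears modified nucleotides, SLC9A5 exchanges sodium for protons across membranes and is best known from brain, and BPIFB2 and BPIFB3 belong to the lipid-binding BPI fold family, many of whose members are secreted by oral and airway epithelium.

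On the mouse build mm10 with GENCODE M21 genes, 4 of the 6 genes lie on chromosome 2. Fjx1 (ENSMUSG00000075012.4) is a gene of 1 exon on the minus strand of chromosome 2, from 102449366 to 102452499. Rbpjl (ENSMUSG00000017007.9) spans 164403141 to 164415448 on the plus strand of chromosome 2. Dnph1 (ENSMUSG00000040658.7) spans 46496711 to 46499624 on the plus strand of chromosome 17, and Slc9a5 (ENSMUSG00000014786.8) spans 105348843 to 105369881 on the plus strand of chromosome 8. Bpifb2 (ENSMUSG00000027481.2, 153875045 to 153895270) and Bpifb3 (ENSMUSG00000068008.8, 153918230 to 153932996) are neighbours in the BPI fold cluster of chromosome 2, both on the plus strand, with 22959 bases between them that hold the related gene Bpifb6. Rbpjl shares 149 exon bases with Matn4 on the opposite strand, and Dnph1 lies in an intron of the noncoding gene Gm26904 on the same strand. The strand setting of the counting is not given in the sources used here, so reads of Rbpjl and Matn4 within the shared bases cannot be told apart.

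RefSeq promoter windows (GRCm38.p6, 250 bases before to 50 after a start site) were found for 5 of the 6 genes, all but Fjx1. They were searched on both strands for TGGGAA, the core bound by RBPJ-type proteins, for the E-box CACGTG and for TATAAA, and no matches overlapped one another. The windows of Rbpjl and Dnph1 are shown because they hold matches, and those of Bpifb2 and Bpifb3 because these neighbours varied together. Capitals mark the matches, and every window is read 5′ to 3′ on the plus strand.
Rbpjl, chr2:164402944-164403243: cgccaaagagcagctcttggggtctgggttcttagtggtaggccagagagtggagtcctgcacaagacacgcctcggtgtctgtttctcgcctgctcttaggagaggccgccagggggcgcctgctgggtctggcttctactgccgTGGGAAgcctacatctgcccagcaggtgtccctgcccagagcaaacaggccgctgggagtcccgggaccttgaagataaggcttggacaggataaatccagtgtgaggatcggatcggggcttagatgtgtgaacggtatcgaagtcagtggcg
Dnph1, chr17:46496539-46496838: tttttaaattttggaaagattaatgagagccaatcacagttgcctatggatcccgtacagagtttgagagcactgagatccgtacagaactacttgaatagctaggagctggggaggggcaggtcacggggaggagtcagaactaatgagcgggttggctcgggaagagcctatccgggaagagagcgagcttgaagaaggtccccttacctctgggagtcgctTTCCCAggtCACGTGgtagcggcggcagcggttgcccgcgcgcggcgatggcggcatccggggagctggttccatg
Bpifb2, chr2:153874795-153875094: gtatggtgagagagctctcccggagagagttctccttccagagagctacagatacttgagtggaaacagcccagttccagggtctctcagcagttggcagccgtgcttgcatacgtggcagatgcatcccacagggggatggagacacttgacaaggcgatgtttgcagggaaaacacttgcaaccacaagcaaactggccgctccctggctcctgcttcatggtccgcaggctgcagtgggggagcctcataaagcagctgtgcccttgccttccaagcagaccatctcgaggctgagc
Bpifb3, the second of its RefSeq starts, chr2:153918144-153918443: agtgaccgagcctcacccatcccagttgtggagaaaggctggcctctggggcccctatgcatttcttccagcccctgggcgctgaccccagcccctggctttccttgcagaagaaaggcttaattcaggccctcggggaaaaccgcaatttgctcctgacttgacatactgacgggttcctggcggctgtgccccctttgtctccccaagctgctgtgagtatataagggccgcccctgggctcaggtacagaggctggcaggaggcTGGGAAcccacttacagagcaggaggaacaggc
TGGGAA lay 104 bases before the start of Rbpjl, 18 bases after the second start of Bpifb3 and, on the minus strand, 26 bases before the start of Dnph1. The Dnph1 window also held CACGTG 17 bases before its start. The windows of Bpifb2, of Slc9a5 and of the first Bpifb3 start held none of the 3 motifs, and no window of these genes held TATAAA. Of all 32851 RefSeq mouse windows of this length, 25.6% held TGGGAA, 7.15% held CACGTG and 13.6% held TATAAA. A match describes the letters and does not show a bound site.

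Fjx1 stood highest in Implant nodes on day 7. Its levels there were 8.78, 7.90 and 8.55 CPM, against 3.10, 1.96 and 3.13 CPM in ContraImplant nodes and 2.59, 2.54 and 3.62 CPM in NoImplant nodes of the same day. Every Implant library exceeded every other day 7 library. On day 14 it had 3.18, 3.98 and 5.76 CPM in Implant nodes, 3.96, 3.74 and 3.26 CPM in ContraImplant nodes and 2.90, 2.64 and 3.12 CPM in NoImplant nodes. The day 14 Implant range overlapped that of ContraImplant nodes and lay above that of NoImplant nodes. The log2 fold change of Implant over NoImplant was 1.53 ± 0.22 (SE) on day 7 and 0.57 ± 0.22 on day 14. Implant nodes on day 14 set against day 7 gave -0.97 ± 0.22.

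Rbpjl was scarce everywhere, with 11 to 53 counts a library, and its order of groups differed from that of Fjx1. It had 1.61, 1.71 and 2.06 CPM in Implant nodes on day 7, 1.06, 0.579 and 1.03 CPM in ContraImplant nodes and 0.510, 0.411 and 0.603 CPM in NoImplant nodes. On day 14 it had 1.33, 1.51 and 1.71 CPM in Implant nodes, 1.32, 1.26 and 1.34 CPM in ContraImplant nodes and 0.533, 0.463 and 0.562 CPM in NoImplant nodes. The 6 NoImplant libraries all lay at or below 0.603 CPM, and the day 14 ContraImplant libraries all lay between 1.26 and 1.34 CPM. Implant over NoImplant gave a log2 fold change of 1.82 ± 0.23 on day 7 and 1.53 ± 0.23 on day 14. ContraImplant over NoImplant gave 0.83 ± 0.24 on day 7, where the ranges overlapped, and 1.32 ± 0.23 on day 14, where they did not. The day 7 overlap came from the ContraImplant library of mouse 8, at 0.579 CPM. Matn4, the gene that shares exon bases with Rbpjl, had 2 to 7 counts a library in Implant nodes on day 7, against 38 to 53 counts for Rbpjl. The mean level of Matn4 was 0.209 CPM in Implant nodes and 0.524 CPM in NoImplant nodes on that day, the reverse of the order of Rbpjl. These Matn4 levels rest on few counts, and whether node Rbpjl counts include reads of Matn4 was not tested. Rbpj, the widely expressed paralog, had 28.8 to 41.9 CPM over all node libraries, and its log2 fold change of Implant over NoImplant on day 7 was -0.25 ± 0.08 (edgeR quasi-likelihood test with Benjamini-Hochberg adjustment, adjusted p = 0.148).

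Dnph1 was high in Implant nodes on day 7 and at the level of the other nodes on day 14. Day 7 levels were 5.22, 6.78 and 6.65 CPM in Implant nodes, 4.38, 2.98 and 4.02 CPM in ContraImplant nodes and 2.77, 3.33 and 2.499 CPM in NoImplant nodes. On day 14 the values were 2.79, 2.70 and 3.71 CPM in Implant nodes, 3.10, 3.58 and 2.84 CPM in ContraImplant nodes and 3.31, 3.14 and 3.09 CPM in NoImplant nodes. All 9 day 14 libraries thus lay below every day 7 Implant library. The log2 fold change of Implant over NoImplant was 1.11 ± 0.18 on day 7 and -0.05 ± 0.18 on day 14. Gm26904, in whose intron Dnph1 lies, had at most 0.533 CPM in any node library.

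Slc9a5 had close replicates in Implant nodes on day 7, at 11.2, 11.04 and 11.3 CPM. ContraImplant nodes had 8.47, 5.79 and 8.40 CPM and NoImplant nodes 5.53, 6.06 and 4.96 CPM on that day. On day 14 it had 7.16, 8.18 and 7.59 CPM in Implant nodes, 8.31, 6.81 and 7.67 CPM in ContraImplant nodes and 5.83, 6.49 and 5.74 CPM in NoImplant nodes. Both nodes of implanted mice lay above the NoImplant nodes on day 14, and they overlapped each other. Implant over NoImplant gave a log2 fold change of 1.02 ± 0.14 on day 7 and 0.34 ± 0.14 on day 14, and ContraImplant over NoImplant gave 0.46 ± 0.14 on day 7 and 0.34 ± 0.14 on day 14.

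**Figure D1:**
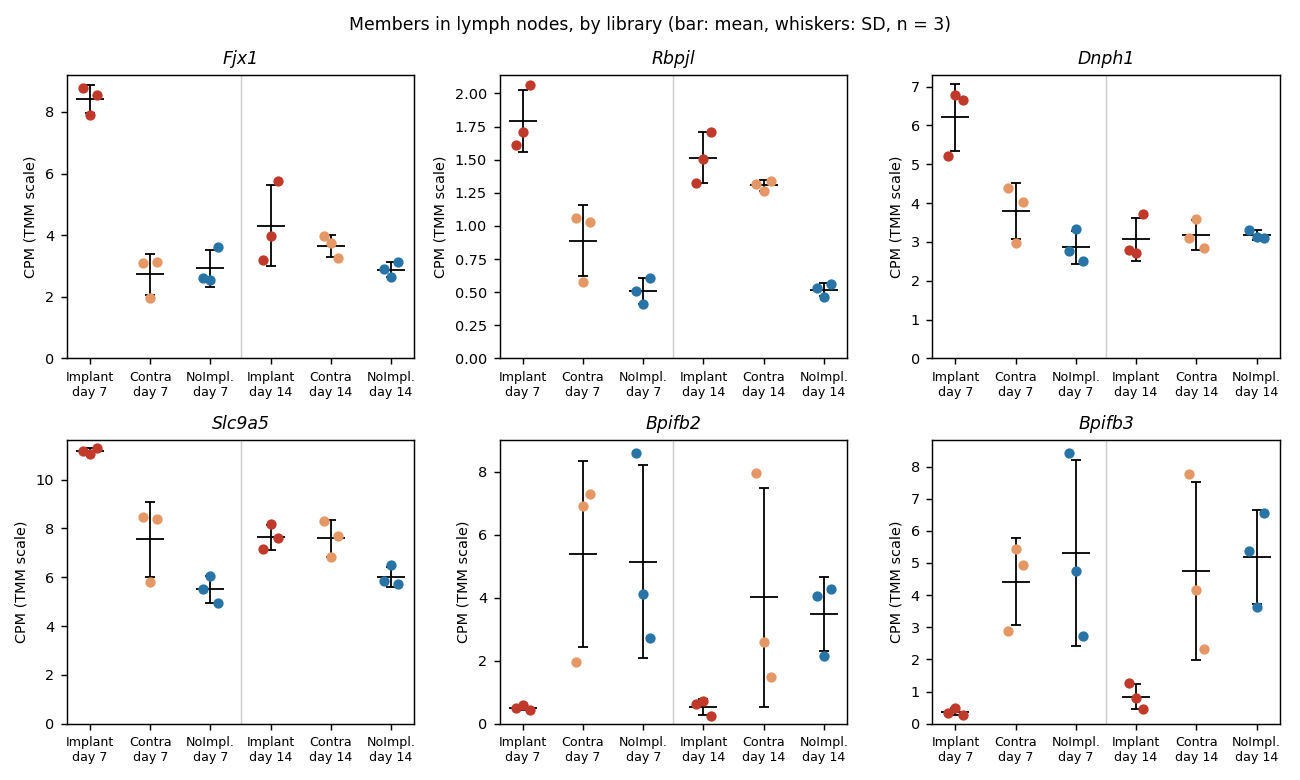
CPM on the TMM scale of each gene in every node library, with bars for the group mean and whiskers for the SD (3 libraries a group). Fjx1, Rbpjl, Dnph1 and Slc9a5 sit highest in Implant nodes on day 7, whereas all 6 Implant libraries sit below the other 12 for Bpifb2 (at most 0.733 CPM) and Bpifb3 (at most 1.26 CPM).

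Bpifb2 and Bpifb3 went the other way: both were lower in Implant nodes on both days. Bpifb2 had 0.509, 0.583 and 0.428 CPM in Implant nodes on day 7, 1.97, 6.90 and 7.28 CPM in ContraImplant nodes and 8.59, 4.11 and 2.71 CPM in NoImplant nodes. On day 14 it had 0.629, 0.733 and 0.250 CPM in Implant nodes, 7.95, 2.60 and 1.47 CPM in ContraImplant nodes and 4.04, 2.14 and 4.27 CPM in NoImplant nodes. The 6 Implant libraries, with 6 to 19 counts each, all lay below the other 12, which had 45 to 326 counts. Bpifb3 had 0.339, 0.494 and 0.272 CPM in Implant nodes on day 7, 2.89, 5.43 and 4.94 CPM in ContraImplant nodes and 8.42, 4.75 and 2.71 CPM in NoImplant nodes. Its day 14 values were 1.26, 0.811 and 0.459 CPM in Implant nodes, 7.77, 4.17 and 2.32 CPM in ContraImplant nodes and 5.37, 3.64 and 6.55 CPM in NoImplant nodes. Here too the 6 Implant libraries lay below the other 12. The log2 fold change of Implant over NoImplant was -3.34 ± 0.70 for Bpifb2 on day 7 and -2.67 ± 0.68 on day 14. For Bpifb3 it was -3.84 ± 0.56 on day 7 and -2.60 ± 0.50 on day 14. These standard errors are the widest of the 6 genes, and outside Implant nodes the highest library exceeded the lowest 5.85-fold for Bpifb2 and 3.63-fold for Bpifb3.

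The libraries that were high or low for one of these neighbours were so for the other. Their log2 CPM values correlated across the 18 node libraries with Pearson's r = 0.95 and Spearman's rho = 0.961, and across the 12 libraries that were not Implant nodes with r = 0.884 and rho = 0.895. These points share libraries, and Implant libraries alone form a low cluster, so the values are given as a description. Bpifb6, which lies between them, had 0 to 2 counts in each Implant library and 2 to 27 counts in each of the others, and its log2 fold change of Implant over NoImplant on day 7 was -2.68 ± 1.04 (edgeR adjusted p = 0.191). Bpifb4, the next gene after Bpifb3, had 1 to 11 counts in Implant libraries and 4 to 30 counts in the others, with a log2 fold change of -0.96 ± 0.57 (adjusted p = 0.387). Bpifb5 of the same family, named after its value was seen, was not lower in Implant nodes on day 7. It averaged 4.59 CPM there and 4.04 CPM in NoImplant nodes (log2 fold change 0.19 ± 0.32, edgeR adjusted p = 0.788).

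**Figure D2:**
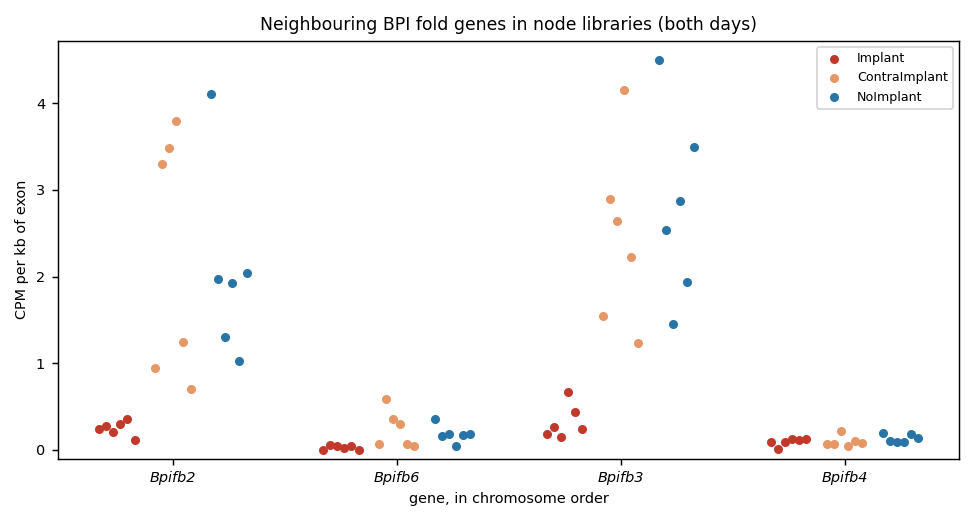
CPM per kb of exon of 4 neighbouring BPI fold genes in chromosome order, 1 point per node library, both days together, with Implant left of ContraImplant and NoImplant. Bpifb2 and Bpifb3 spread widely outside Implant nodes and lie low within them, while Bpifb6 and Bpifb4 stay low in all groups.

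Marker sums of several cell types differed between Implant nodes and the others. The 7 adipocyte markers summed to 370 to 761 CPM in Implant nodes on day 7, 84.3 to 7433 CPM in ContraImplant nodes and 844 to 3628 CPM in NoImplant nodes. On day 14 they summed to 112 to 512 CPM in Implant nodes, 1323 to 2187 CPM in ContraImplant nodes and 622 to 3945 CPM in NoImplant nodes. Implant nodes thus lay below NoImplant nodes on both days and below ContraImplant nodes on day 14. On day 7 the 8 skeletal muscle markers summed to 15.3 to 141 CPM in Implant nodes and 12.7 to 766 CPM in ContraImplant nodes. In NoImplant nodes of that day they ran from 12.8 to 1227 CPM, and on day 14 the highest sum of any group was 16.1 CPM. The 15 secretory and keratin epithelium markers summed to 10.01 to 12.6 CPM in Implant nodes on day 7, 12.9 to 16.4 CPM in ContraImplant nodes and 14.6 to 24.9 CPM in NoImplant nodes, with no overlap between Implant nodes and the others. On day 14 the ranges overlapped, at 13.9 to 18.8 CPM in Implant nodes, 15.4 to 21.97 CPM in ContraImplant nodes and 14.4 to 17.2 CPM in NoImplant nodes. Pip, Bpifa1 and Bpifa2 had 0 counts in all 18 libraries. The 9 myeloid markers summed to 1822 to 2107 CPM in Implant nodes on day 7, 2288 to 2803 CPM in ContraImplant nodes and 1972 to 2276 CPM in NoImplant nodes, so that Implant nodes lay below ContraImplant nodes. On day 14 they summed to 2359 to 2985 CPM in Implant nodes, 2793 to 3381 CPM in ContraImplant nodes and 2554 to 3489 CPM in NoImplant nodes, with overlap. Of them Itgam was lower in Implant than in ContraImplant nodes on day 7 (log2 fold change -1.30 ± 0.23, adjusted p = 0.0319), as was Adgre1 (-1.40 ± 0.28, adjusted p = 0.0384). The 11 stroma markers summed to 2373 to 2970 CPM in Implant nodes on day 7, below the 3332 to 4471 CPM of NoImplant nodes, whereas ContraImplant nodes had 2956 to 4563 CPM. The collagen gene Col1a1 of that list was higher in Implant than in ContraImplant nodes on day 7 (1.40 ± 0.23, adjusted p = 0.0291). So was Col3a1 (1.15 ± 0.23, adjusted p = 0.03995). The list sum ran lower there, with ranges that overlapped, and no other marker of the list passed. These calls, like those of Itgam and Adgre1, came from the edgeR fit that does not pair the nodes of a mouse. That contrast gave 131 genes, and 0 to 2030 with 1 library left out, so the calls are unsteady. The 9 B cell markers summed to 5313 to 5790 CPM in Implant nodes on day 7, 3703 to 5365 CPM in ContraImplant nodes and 4477 to 5002 CPM in NoImplant nodes. Beside the 4 genes that were higher, the 12 cell cycle markers summed to 515 to 697 CPM in Implant nodes on day 7, 230 to 675 CPM in ContraImplant nodes and 239 to 355 CPM in NoImplant nodes. For Rbpjl, the 16 pancreatic acinar markers summed to 6.28 to 17.2 CPM, with Ptf1a, Cela2a, Cpa1 and Pnlip at 0 counts in all 18 libraries. The part of these markers in the differences of the 6 genes was not tested.

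Over the 6 genes, library ranges did not overlap between Implant and NoImplant nodes for 6 on day 7 and for 5 on day 14, all but Dnph1. Over all 18312 genes tested, the same held for 31.9% on day 7 and 32.9% on day 14; since these contrasts chose the genes, nothing is read from the counts. Between Implant and ContraImplant nodes, 6 of the 6 did not overlap on day 7 (21.8% of all genes), and on day 14 only Bpifb2 and Bpifb3 did not (18.3% of all genes). Implant values chose the genes, so nothing is read from these counts either. Between ContraImplant and NoImplant nodes 0 of the 6 were separated on day 7 (10.4% of all genes, with every library kept). Without the ContraImplant library of mouse 8 the count was 3, namely Rbpjl, Dnph1 and Slc9a5, each higher in ContraImplant nodes. With either of the other ContraImplant libraries of that day left out instead, it was again 0. Ranges of fewer libraries separate more easily, and the share of all genes with a library left out was not computed. Nothing is therefore read from the count without mouse 8. On day 14, 3 were separated (10.1% of all genes), namely Fjx1, Rbpjl and Slc9a5. The day 14 count was not repeated with a library left out. NoImplant values were part of the contrasts that chose the genes, so nothing is read from the ContraImplant counts of either day. Implant nodes on day 14 lay below those of day 7 without overlap for 3 of the 6, Fjx1, Dnph1 and Slc9a5 (19.3% of all genes in either direction). This count too rests on Implant values that chose the genes, and nothing is read from it. All these contrasts share libraries, so they are not independent of one another.

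The log2 fold changes of Implant over ContraImplant on day 7 were 1.61 ± 0.22 for Fjx1, 0.99 ± 0.22 for Rbpjl, 0.71 ± 0.18 for Dnph1 and 0.56 ± 0.14 for Slc9a5. They were -3.41 ± 0.70 for Bpifb2 and -3.58 ± 0.56 for Bpifb3. On day 14 the same contrast gave 0.23 ± 0.22 for Fjx1, 0.21 ± 0.21 for Rbpjl, -0.05 ± 0.18 for Dnph1, 0.0083 ± 0.14 for Slc9a5, -2.87 ± 0.69 for Bpifb2 and -2.47 ± 0.50 for Bpifb3. The day 7 values kept their signs without the libraries that stood apart. Without the ContraImplant library of mouse 7 they were 1.70 for Fjx1, 1.10 for Rbpjl, 0.81 for Dnph1, 0.64 for Slc9a5, -3.81 for Bpifb2 and -3.82 for Bpifb3. Without that of mouse 8 they were 1.43 for Fjx1, 0.78 for Rbpjl, 0.56 for Dnph1, 0.40 for Slc9a5, -3.20 for Bpifb2 and -3.42 for Bpifb3. ContraImplant over NoImplant on day 7 gave -0.09 ± 0.22 for Fjx1, 0.83 ± 0.24 for Rbpjl, 0.41 ± 0.18 for Dnph1, 0.46 ± 0.14 for Slc9a5, 0.07 ± 0.58 for Bpifb2 and -0.26 ± 0.45 for Bpifb3. Without the library of mouse 7 these were -0.18 for Fjx1, 0.71 for Rbpjl, 0.30 for Dnph1, 0.37 for Slc9a5, 0.47 for Bpifb2 and -0.03 for Bpifb3. Without that of mouse 8 they were 0.10 for Fjx1, 1.04 for Rbpjl, 0.55 for Dnph1, 0.61 for Slc9a5, -0.13 for Bpifb2 and -0.43 for Bpifb3. The signs of Fjx1 and Bpifb2 thus turned without mouse 8, and those of the other 4 genes did not turn without either mouse.

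**Figure D3:**
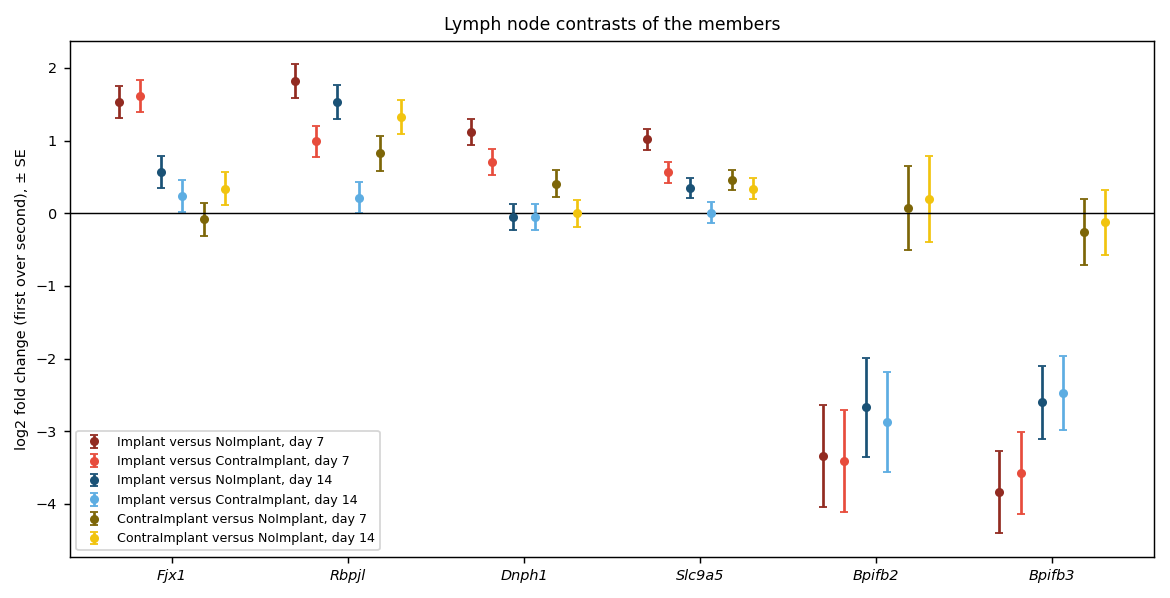
Log2 fold changes of the 6 genes in 6 node contrasts, with the first group named over the second and whiskers of 1 SE. Implant contrasts are positive for Fjx1, Rbpjl, Dnph1 and Slc9a5 on day 7 (0.56 to 1.82) and negative for Bpifb2 and Bpifb3 on both days, while ContraImplant over NoImplant was 0.83 on day 7 and 1.32 on day 14 for Rbpjl and 0.46 on day 7 and 0.34 on day 14 for Slc9a5.

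Within each mouse, the Implant node minus its ContraImplant node gave the same sign for the Bpifb genes in 6 of 6 mice. For Bpifb2 the log2 differences were -1.78, -3.38 and -3.86 on day 7 and -3.52, -1.72 and -2.20 on day 14. For Bpifb3 they were -2.80, -3.24 and -3.83 on day 7 and -2.56, -2.26 and -2.14 on day 14. Bpifb3 differences thus stayed within a narrower range than those of Bpifb2. For Fjx1 they were 1.48, 1.96 and 1.44 on day 7, and -0.31, 0.09 and 0.81 on day 14. Rbpjl was higher in the Implant node of every mouse, by 0.58, 1.43 and 0.995 on day 7 and by 0.0068, 0.24 and 0.35 on day 14. Dnph1 and Slc9a5 were higher in the Implant node of all 3 day 7 mice, by 0.25 to 1.16 and 0.40 to 0.92 on the log2 scale, with mixed signs on day 14.

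**Figure D4:**
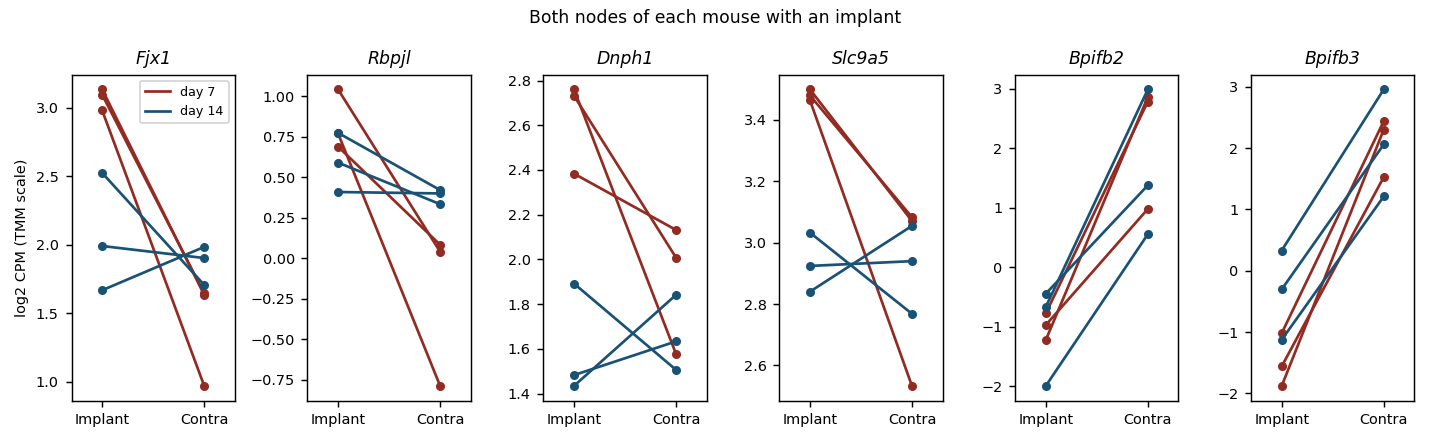
Log2 CPM of each gene in the Implant node and the ContraImplant node of the same mouse, 1 line per mouse, with day 7 and day 14 in different colours. Bpifb2 and Bpifb3 lines climb toward the ContraImplant node in all 6 mice, and Fjx1 lines fall steeply in the day 7 mice (by 1.44 to 1.96).

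Per kb of exon, Dnph1 had the highest level of the 6 genes in Implant nodes on day 7, at 5.22 ± 0.73 CPM per kb (SD, n = 3). It was followed by Fjx1 (2.68 ± 0.15), Slc9a5 (2.13 ± 0.03), Rbpjl (0.313 ± 0.041), Bpifb2 (0.242 ± 0.037) and Bpifb3 (0.197 ± 0.061). In NoImplant nodes on day 7 the order began with Bpifb3 at 2.83 ± 1.54 CPM per kb, Bpifb2 at 2.46 ± 1.47 and Dnph1 at 2.41 ± 0.36. The means of these 3 genes differed by less than the SDs of the Bpifb genes. Slc9a5 followed at 1.05 ± 0.11 CPM per kb, Fjx1 at 0.931 ± 0.194 and Rbpjl at 0.0887 ± 0.0167. Among groups, the Implant day 7 mean stood first and apart from the next group for Fjx1, Dnph1 and Slc9a5, whereas for Rbpjl it overlapped that of Implant nodes on day 14. For Rbpjl the ContraImplant day 14 libraries lay above those of ContraImplant day 7, which lay above those of NoImplant day 14. For both Bpifb genes the 4 groups outside Implant overlapped each neighbour in the order of means, and so did the 2 Implant groups.

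For each gene, the 3 genes with the most similar log2 CPM over the 18 node libraries were sought among 13143 genes. Bpifb2 and Bpifb3 were each other's closest, followed for Bpifb2 by Syndig1l (Pearson's r = 0.903) and Nxph3 (0.880), and for Bpifb3 by Cd209d (0.928), a C-type lectin gene, and Syndig1l (0.923). Cd209d averaged 5.48 ± 1.14 CPM in Implant nodes on day 7, 42.4 ± 20.4 CPM in ContraImplant nodes and 25.9 ± 8.46 CPM in NoImplant nodes (SD, n = 3 each); it has close copies whose reads the counting may share out. Close to Fjx1 were the cytokine gene Lif (0.873) and the smooth muscle actin gene Actg2 (0.864). Lif averaged 6.60 ± 0.95 CPM in Implant nodes, 3.59 ± 1.23 CPM in ContraImplant nodes and 3.24 ± 0.43 CPM in NoImplant nodes on day 7. Closest to Rbpjl were the lysosomal transporter gene Pqlc2 (0.900), the T cell costimulator gene Icos (0.860) and Zdhhc16 (0.854). Icos also stood near Slc9a5 (0.882), with the cell cycle kinase gene Cdk2 (0.900) and Lxn (0.881). Closest to Dnph1 were Ikzf2 (0.882), Zbtb32 (0.859) and Tedc1 (0.855). All these correlations run over libraries that share their groups and are a description.

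The other genes of the related pathways were counted by the edgeR quasi-likelihood test in Implant against NoImplant nodes. On day 7 none passed: 0 of 27 Notch and RBPJ genes, 0 of 24 Fat, Dachsous and Hippo genes, 0 of 5 BPI fold genes, 0 of 12 SLC9 exchangers and partners and 0 of 24 nucleotide salvage genes. Over all genes 8, or 0.0437%, passed on that day, and 0 to 4 did when 1 library was left out. At an unadjusted p under 0.05 there were 3 Notch genes, 1 Fat and Hippo gene, 2 BPI fold genes, 2 SLC9 genes and 7 nucleotide genes, and DESeq2 called 1 Notch gene and 2 nucleotide genes. Over all genes, 18.2% had an unadjusted p under 0.05 on day 7, and DESeq2 called 711. The nucleotide list had the smallest adjusted p-values. Tk1, which salvages thymidine, averaged 42.0 ± 2.99 CPM in Implant nodes and 25.4 ± 1.16 CPM in NoImplant nodes (log2 fold change 0.72 ± 0.15, adjusted p = 0.0632), and the thymidylate synthase gene Tyms gave 0.92 ± 0.22 (adjusted p = 0.0754). The ribonucleotide reductase genes Rrm1 (0.56 ± 0.18, adjusted p = 0.131) and Rrm2 (1.18 ± 0.38, adjusted p = 0.135) followed. Of the Notch genes, the ligand gene Dll4 gave 0.65 ± 0.18 (adjusted p = 0.101), Dtx1 0.50 ± 0.23 (0.257) and the receptor gene Notch4 -0.53 ± 0.27 (0.323). The smallest adjusted p-values of the other lists belonged to Tead3 (0.46 ± 0.18, adjusted p = 0.202) and Slc9a8 (0.21 ± 0.07, adjusted p = 0.147), and the lipid transfer genes Pltp (-0.41 ± 0.18, 0.255) and Lbp (0.58 ± 0.38, 0.427) did not pass either. On day 14, 1 Fat and Hippo gene passed, Vangl2 (0.37 ± 0.10, adjusted p = 0.0476, chosen after its value was seen), and none of the other 4 lists did, against 5.97% of all genes. At an unadjusted p under 0.05 those 4 lists held 4 Notch, 1 BPI fold, 3 SLC9 and 4 nucleotide genes, and DESeq2 called 1 Notch, 1 SLC9 and 2 nucleotide genes. Over all genes, 28.4% had an unadjusted p under 0.05 on day 14, and DESeq2 called 2400. The 5.97% stands for 1094 genes and is unsteady: 0 passed without Implant replicate 2 or without NoImplant replicate 2, 372 without Implant replicate 1, 11 without Implant replicate 3 and 4 without NoImplant replicate 3.

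Joint soft tissue gives a test that the choice of genes did not use. Each RST day was set against LST day 35, the only LST day, so label and day cannot be told apart before day 35. Of the 6 genes, 4 passed the filter on low counts there, and Fjx1 and Slc9a5 rose in RST tissue with their highest means on day 7, while Dnph1 fell. Rbpjl passed the filter only through RST libraries in which it is high, so its joint values are a description with no test. On days 3, 7 and 14 most genes moved in these contrasts, which is the scale for the counts that follow.

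Fjx1 had 6.01, 6.36, 7.13 and 7.06 CPM in RST tissue on day 7, against 1.13, 0.456, 1.02 and 0.665 CPM in LST tissue. Every RST library stood well above every LST library. Its RST means ran 3.07 ± 0.48 CPM on day 3, 6.64 ± 0.55 on day 7, 4.69 ± 1.21 on day 14, 2.79 ± 1.35 on day 21 and 0.920 ± 0.203 on day 35, against 0.818 ± 0.313 CPM in LST tissue (SD, n = 4 each). The log2 fold changes over LST were 1.90 ± 0.30 on day 3 (edgeR adjusted p = 8.16e-06), 3.01 ± 0.29 on day 7 (6.77e-09), 2.51 ± 0.30 on day 14 (4.6e-07) and 1.78 ± 0.30 on day 21 (0.000141). On day 35 it was 0.17 ± 0.34 (0.953), which did not pass.

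Slc9a5 had 10.2, 9.79, 11.1 and 10.98 CPM in RST tissue on day 7, against 3.20, 3.65, 3.54 and 2.92 CPM in LST tissue. These ranges lie far apart, and both lie close together within themselves. Its RST means were 6.41 ± 0.94 CPM on day 3, 10.5 ± 0.63 on day 7, 6.43 ± 0.99 on day 14, 3.85 ± 1.10 on day 21 and 2.95 ± 0.56 on day 35, against 3.33 ± 0.33 CPM in LST tissue. It rose on day 3 (log2 fold change 0.95 ± 0.17, adjusted p = 3.81e-05), day 7 (1.66 ± 0.17, 1.16e-08) and day 14 (0.95 ± 0.17, 7.22e-05). It did not pass on day 21 (0.22 ± 0.18, 0.363) or day 35 (-0.18 ± 0.18, 0.846).

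Rbpjl had 41 to 52 counts a library in RST tissue on day 7 and 1 to 3 in LST tissue. Its levels were 1.61, 1.65, 1.54 and 1.51 CPM in RST tissue, against 0.141, 0.0456, 0.0852 and 0.0512 CPM in LST tissue. The fitted log2 fold change over LST, which rests on 7 counts in the 4 LST libraries, was -0.41 ± 0.86 on day 3, 4.19 ± 0.52 on day 7, 3.64 ± 0.54 on day 14, 2.40 ± 0.62 on day 21 and 0.59 ± 0.78 on day 35. The day 21 value leans on replicate 2, at 1.01 CPM against 0.170 to 0.297 CPM in the other 3, and without it the value was 1.45 ± 0.59. Matn4, a cartilage matrix gene whose exons share 149 bases with those of Rbpjl, ran the same way. It averaged 1.44, 45.8, 25.2, 7.75 and 2.37 CPM in RST tissue from day 3 to day 35, against 0.992 CPM in LST tissue, and RST day 21 replicate 2 had 18.6 CPM of it. Summed over a group, Rbpjl counts were 3.44% of Matn4 counts in RST tissue on day 7, 4.28% on day 14 and 5.47% on day 21, and 8.24% in LST tissue. The shared bases are 2.88% of the Matn4 exons. Whether the joint Rbpjl counts are reads of Matn4 was not tested, and the joint values of Rbpjl are uncertain for that reason. In nodes the relation is turned round: Rbpjl counts were 860% of Matn4 counts in Implant nodes on day 7 and 94.9% in NoImplant nodes.

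Dnph1 went the other way in joint soft tissue. It had 5.18, 4.99, 3.83 and 4.07 CPM in RST tissue on day 7, against 9.04, 10.2, 9.03 and 9.26 CPM in LST tissue, with no overlap. It fell on day 7 (log2 fold change -1.05 ± 0.17, adjusted p = 1.07e-05) and on day 14 (-0.49 ± 0.17, adjusted p = 0.0183). The day 14 call was lost without RST replicate 1 (-0.42, adjusted p = 0.0608) or replicate 2 (-0.38, adjusted p = 0.083). On day 3 (-0.31 ± 0.17, adjusted p = 0.116), day 21 (-0.27 ± 0.17, 0.241) and day 35 (-0.05 ± 0.17, 0.977) it did not pass. The direction on day 7 is opposite to that in nodes, where Implant libraries of day 7 were higher; the node difference chose the gene, and the 2 tissues were counted and scaled separately.

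**Figure D5:**
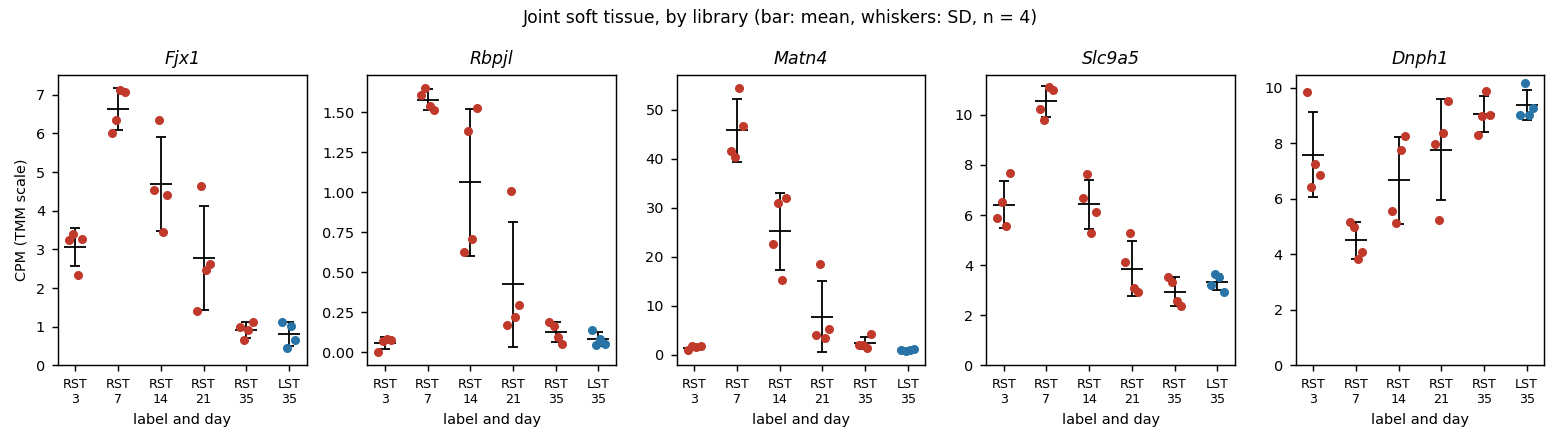
CPM on the TMM scale of Fjx1, Rbpjl, Matn4, Slc9a5 and Dnph1 in every joint library by label and day, with bars for the mean and whiskers for the SD (4 libraries a group). Fjx1, Rbpjl, Matn4 and Slc9a5 peak in RST tissue on day 7 (means of 6.64, 1.58, 45.8 and 10.5 CPM), where Dnph1 is lowest (4.52 CPM), and all but Matn4 overlap LST tissue on day 35.

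Bpifb2 and Bpifb3 were nearly undetected in joint soft tissue and did not pass the filter. Bpifb2 had 4 counts in all, 1 in each of 4 of the 24 libraries, and Bpifb3 had 5 counts in 3 libraries. In RST tissue on day 7 the 4 libraries held 0 counts of Bpifb2, which at 3 counts over the group allows up to 0.0335 CPM. In LST tissue 0 counts of Bpifb3 allow up to 0.029 CPM. These limits are scaled to raw library sizes, unlike the levels on the TMM scale, and cover counting error only. No difference between joint groups was detectable at this depth.

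Of Fjx1, Slc9a5 and Dnph1, the 3 genes tested, 2 were called higher and 0 lower on day 3, against 38.6% and 30.1% of the 16149 genes tested. On day 7, 2 were called higher and 1 lower, against 41% and 35.1% of all genes. On day 14, again 2 were higher and 1 lower, against 33.4% and 24.5%. On day 21, 1 was higher and 0 lower, against 21.7% and 5.42%. On day 35 none of them was called by edgeR, by DESeq2 or at an unadjusted p under 0.05. Over all genes edgeR called 2.92% higher and 0.0495% lower, DESeq2 called 767, and 12.5% had an unadjusted p under 0.05. RST tissue on day 35 set against RST day 7 gave log2 fold changes of -2.84 ± 0.29 for Fjx1, -1.84 ± 0.17 for Slc9a5 and 1.004 ± 0.18 for Dnph1, each with adjusted p of at most 2.51e-05, in a contrast where 72.1% of all genes passed. All contrasts against LST share its 4 libraries.

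The cell type markers of joint soft tissue moved over the same days. The 8 skeletal muscle markers summed to 53055 to 88401 CPM in RST tissue on day 7, against 171149 to 189757 CPM in LST tissue. The 11 stroma markers, Col1a1 and Col3a1 among them, summed to 17001 to 22992 CPM in RST tissue on day 7, against 615 to 712 CPM in LST tissue. As the means of Fjx1, Slc9a5 and Rbpjl did, these sums reached their highest values on day 7, although the range overlapped that of day 14. RST sums were 5327 to 6517 CPM on day 3, 7843 to 18884 CPM on day 14, 2912.5 to 11740 CPM on day 21 and 1636 to 2728 CPM on day 35. The 12 cell cycle markers summed to 185 to 211 CPM in RST tissue on day 7, against 6.11 to 15.9 CPM in LST tissue, and the 9 myeloid markers to 1046 to 1460 CPM, against 62.7 to 90.9 CPM. Both sums reached higher on day 3, to 312 CPM for the cell cycle and 2114 CPM for the myeloid markers. The 7 adipocyte markers summed to 1282 to 2198 CPM in RST tissue on day 7, against 3089 to 4552 CPM in LST tissue. For Rbpjl, the 12 pancreatic acinar markers in the table summed to 4.39 to 6.35 CPM in RST tissue on day 7, against 0.456 to 0.98 CPM in LST tissue. On RST day 3 they summed to 4.49 to 6.40 CPM, while Rbpjl averaged 0.0575 CPM there. The part of these markers in the changes of the 6 genes was not tested.

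The related pathways moved as well: on day 7, 13 of 26 Notch and RBPJ genes rose and 5 fell, with Rbpj itself at 33.1 ± 0.89 CPM in RST tissue and 21.2 ± 0.81 CPM in LST tissue (log2 fold change 0.64 ± 0.09, adjusted p = 6.93e-07). Of 25 Fat, Dachsous and Hippo genes, 15 rose and 7 fell. Among them, named after their values were seen, were Fat4 (2.34 ± 0.24, adjusted p = 1.77e-08) and Dchs1 (1.70 ± 0.22, adjusted p = 3.79e-07). Both code for mouse relatives of the cadherins that fly four-jointed acts on. The other Fat and Dachsous genes differed: Fat1 rose (2.64 ± 0.26, adjusted p = 7.25e-09) and Fat3 fell (-0.80 ± 0.33, adjusted p = 0.0326). Fat2 (-0.11 ± 0.53, adjusted p = 0.8545) and Dchs2 (0.21 ± 0.44, adjusted p = 0.672) did not pass. Of 13 SLC9 genes 4 rose and 6 fell, of 24 nucleotide genes 16 rose and 3 fell, and both BPI fold genes measured, Pltp and Lbp, rose. These counts stand beside 41% of all genes that rose and 35.1% that fell.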

How the data were processed

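Whole-number counts per gene, unnormalised, of 18 lymph node and 24 joint soft tissue libraries were used as deposited by the authors, 1 table per tissue. Per the labels' protocols, tissue was flash frozen, RNA was taken with RLT (nodes) or Trizol (joint), and libraries were made with a NEBNext Ultra II kit. Per the submitters' processing notes, reads passed through fastp and STAR on mm10; for versions, the counter and its strand setting no source used here gives a value.

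Groups came from the sample titles. Identifiers were matched to GENCODE M21 (54723 of 54752 node genes and 36591 of 36604 joint genes), and positions are 1-based. The edgeR 4.0.16 filter filterByExpr (minimum count 10; R 4.3.3) left 18312 node and 16149 joint genes. After TMM scaling, a quasi-likelihood F test was run from a single fit of each tissue, and Benjamini-Hochberg adjusted p-values below 0.05 passed. The code was tested on simulated data. Standard errors were obtained by dividing the size of the log2 fold change by the square root of its F. Levels are CPM on the TMM scale, and CPM per kb divides by the joined exon length. Correlations used log2 CPM with a prior count of 2.

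Implant and ContraImplant samples of 1 number come from the same mouse per the labels, and their deviations from the group means correlated in every pair (r from 0.106 to 0.402), so the fit with the mouse as a block is an alternative that pairs samples. Other alternatives were DESeq2 1.42.0, its size factors in edgeR, no filter, a stricter filter (CPM of 1 in 3 libraries), only the 2 groups compared, raw library sizes and leaving out each library. Named are the 6 genes, up to 4 genes of each pathway list with the smallest adjusted p on day 7 and the 3 most similar genes of each of the 6, without predicted genes, pseudogenes and antigen receptor segments. Of the similar genes, 1 is not reported here. The genes and lists were chosen with earlier results of these data known. The comparisons of ContraImplant with NoImplant, of day 14 with day 7 and of RST day 35 with RST day 7, and the counts set beside Matn4, were added after values had been seen, as was leaving out single libraries from ContraImplant against NoImplant.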

Additional observations from a re-analysis of the deposited data

Results flagged for a closer look

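For 4 genes in each of the 6 groups of 4 joint libraries, 24 sets in all, a library was looked at again where its gap to the nearest of the others exceeded the 95% critical value of Dixon's test, which chance gives in about 1 set in 20. Fjx1 in RST tissue on day 3 had 1 low library, replicate 3, at 2.35 CPM, with a gap of 0.863 of the range. Rbpjl in RST tissue on day 21 had 1 high library, replicate 2, at 1.01 CPM, with a gap of 0.848 of the range. That library also had 18.6 CPM of Matn4, against 3.29 to 5.15 CPM in the other 3.

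The effect of RST over LST differed between day 35 and day 7 in the direct test of those RST groups (edgeR quasi-likelihood test) for the 3 genes tested in joint soft tissue. The log2 difference was -2.84 for Fjx1 (adjusted p = 3.27e-08), 1.004 for Dnph1 (2.51e-05) and -1.84 for Slc9a5 (1.24e-08), where 72.1% of all genes tested passed. The fitted log2 difference of Rbpjl was -3.60, given with no test because it passed the filter only through libraries in which it is high, RST day 7 among them.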

How the results depend on the processing

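The 24 log2 fold changes of Implant nodes over the others moved by less than the spread between replicates under every alternative run. Of the 12 of ContraImplant over NoImplant, run with single libraries left out, the exception was Bpifb2 on day 14, at -0.77 without ContraImplant replicate 1 against 0.20 with all. On day 7 Implant over NoImplant ran, over the libraries left out, from 1.44 to 1.70 for Fjx1, 1.68 to 1.95 for Rbpjl, -3.65 to -2.76 for Bpifb2 and -4.16 to -3.35 for Bpifb3. Day 14 values depended more on single libraries. Fjx1 in Implant over NoImplant nodes was 0.31 without Implant replicate 3 and 0.75 without Implant replicate 1 (0.57 with all), and in Implant over ContraImplant nodes it turned to -0.03 without Implant replicate 3 and reached 0.40 without Implant replicate 1. Implant over ContraImplant was -1.91 for Bpifb2 and -1.94 for Bpifb3 without ContraImplant replicate 1, against -2.87 and -2.47 with all, and ran down to -3.29 for Bpifb2 and -2.90 for Bpifb3. Dnph1 and Slc9a5, near 0 in that contrast, changed sign. The counts over all genes were unstable. Implant against NoImplant on day 7 gave 8 genes, 55 with no filter, 711 by DESeq2, 1105 with only the 2 groups in the fit and 0 to 4 with 1 library left out. On day 14 it gave 1094 genes, 2400 by DESeq2, 620 with only the 2 groups and 0 to 1557 with 1 library left out. Implant against ContraImplant on day 7 gave 131 genes, 231 with no filter, 1073 by DESeq2, 0 with only the 2 groups and 0 to 2030 with 1 library left out. On day 14 it gave 0 by edgeR (1550 at an unadjusted p under 0.05), 11 by DESeq2, 136 with only the 2 groups and 0 to 1 with 1 library left out. The cause was not tested.

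With the mouse as a block, Implant against ContraImplant on day 7 gave 19 genes, and no other node count moved by over 1.5 times under a block. In joint soft tissue the replicate numbers are numbers only (r of same-numbered deviations between RST and LST day 35 from 0.0829 to 0.191); a block on them gave 557 genes on day 35 against 479 and changed no call of the 3 genes tested. RST against LST on day 35 gave 751 genes with no filter, 767 by DESeq2, 915 with only the 2 groups and 182 to 544 with 1 library left out. With 1 library left out, day 3 counts ran from 10606 to 11042, those of day 7 from 11793 to 12263, those of day 14 from 7663 to 9555 and those of day 21 from 2502 (without RST replicate 2) to 4937. Fjx1 on day 35, which never passed, changed sign without LST replicate 2 (-0.035, adjusted p = 0.999) and ran up to 0.36 without LST replicate 1. Dnph1 on day 3 passed with only the 2 groups (-0.39, adjusted p = 0.0235) and without RST replicate 1 (-0.45, adjusted p = 0.027). On raw library sizes, levels moved by more than 1 SD for 1 of 36 node groups (Slc9a5 in Implant nodes on day 7, 11.3 CPM) and 9 of 36 joint groups, with the highest RST means still on day 7 (8.58 CPM for Fjx1, 2.03 for Rbpjl and 13.6 for Slc9a5). Genes with few counts, Rbpjl and the Bpifb genes in Implant nodes, carry the widest counting error.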
